A study of Mus musculus with 3 samples.

Results

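The RNA and the surface protein of 6 antigens were compared in the same droplets. The antigens were CD45, CD11b, CD86, CD4, CD25 and CD3e, read as antibody tags, and their genes were Ptprc, Itgam, Cd86, Cd4, Il2ra and Cd3e, read as unique molecular identifiers (UMIs, 1 per captured RNA molecule). The genes are 6 of the 31053 in the RNA table, and the tags are all 6 in the tag table. They were chosen by name and not by a cut on any measured value, though earlier results of these data were known. The cells came from the brains of female C57BL/6 mice 2 to 3 months old. Brains with metastasis had received E0771 mouse mammary carcinoma cells by carotid injection about 2 weeks earlier, and naive brains had none. The mice were perfused with PBS, brains were digested with a papain kit, a Percoll gradient enriched the mononuclear cells, and the labels give 1 brain hemisphere per sample. Every brain got the same 6 antibodies plus 1 hashing antibody, and the stained cells were then pooled into a single library. The design text speaks of 6 pooled samples, and the files used here hold 4 hashing antibodies, 2 for each condition.

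CD45 is a transmembrane phosphatase carried by all nucleated blood cells. CD11b is the alpha M chain of a beta2 integrin of monocytes, neutrophils, macrophages and microglia, and CD86 is a ligand with which antigen-presenting cells costimulate T cells through CD28. CD3e is a signalling chain of the T cell receptor complex, CD4 is the co-receptor of helper T cells, and CD25 is the alpha chain of the interleukin 2 receptor, high on regulatory and activated T cells. Cytometry of brain myeloid cells rests on the first pair, since resident microglia carry CD11b with little CD45 while blood-derived cells carry more CD45. RNA and protein of an antigen can differ because surface protein outlasts its RNA and because droplet sequencing captures a small part of the RNA.

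The 4 brains were 2 with metastasis (5360 and 6174 cells, medians of 7294 and 7707.5 UMIs per cell) and 2 naive ones (572 and 315 cells, medians of 1393.5 and 1230 UMIs). Nothing beyond the hashing antibodies says that they were separate animals, so the spread behind each p-value is that of 4 cell suspensions or fewer and may be technical. Comparisons by tag within clusters 2 and 8 rest on the 2 suspensions with metastasis alone, each split by tag count. The authors' 13 numbered clusters were used as deposited, and what they were computed from is not given in the sources used here. Clusters 0, 1, 3, 4 and 5 are large and unnamed. They held 73.6% and 70.6% of the cells of the brains with metastasis. Cluster 0 had 1640 and 1512 cells there, against 37 and 3 in naive brains. Whether these clusters are tumour cells was not tested. Marker genes led cluster 6 (endothelial-like), clusters 7 and 9 (choroid plexus-like) and cluster 11 (mural-like). Cluster 2 was led by Lyz2, Fcer1g and Ctss, cluster 8 by MHC class II and lymphocyte genes, cluster 10 by Lyz2, Plac8 and Saa3, and cluster 12 by neutrophil and microglia genes. Clusters 6, 7, 9 and 11, whose cell types should lack all 6 antigens, served as background. RNA levels are CPM, UMIs of the gene scaled to the total UMIs of the same cells, and tag levels are mean tag counts per cell.

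The antigens were sparse in RNA and dense in tags. Ptprc (chr1:138062859-138175756, mm10) had 1715 UMIs in 1120 of 12421 cells and 439332 CD45 tags. Itgam (chr7:128062640-128118491) had 844 UMIs in 629 cells and 542718 CD11b tags, and Cd86 (chr16:36568956-36666158) had 568 UMIs in 458 cells and 34641 tags. The T cell antigens were rarer: Cd3e (chr9:44998735-45009663) had 200 UMIs, and Cd4 (chr6:124864693-124888247) and Il2ra (chr2:11642792-11693194) had 42 UMIs each, in 40 and 35 cells. Their tags numbered 23950, 12965 and 6885. Of the CD3e tags, 21201 (88.5%) lay in a single cell of cluster 8 of metastasis 2, so the CD3e tag means and the correlations across clusters are given with and without that cell. Tags of different antibodies are not on a common scale and were not compared with each other as amounts of protein.

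The 250 bases before the annotated start of 4 of the genes were given in a table of RefSeq promoters on mm10, and 3 are shown because Itgam and Ptprc had their highest RNA and tags in the same cluster while Cd3e had its highest RNA in another. Each is written 5′ to 3′ on the gene's own strand, and capitals mark GAGGAA, a core bound by the Ets family, to which PU.1, a regulator of myeloid genes, belongs. On the opposite strand the same motif reads TTCCTC and is capitalised too. Itgam is chr7:128062390-128062639 (plus strand) and Cd3e is chr9:45009612-45009861 (minus strand). Ptprc is the window upstream of the first of 2 starts in the promoter set, chr1:138175306-138175555 (minus strand). The starts are those of the promoter set. The Ptprc window lies inside the gene span given above, and the Cd3e window overlaps the Cd3e span.
Itgam: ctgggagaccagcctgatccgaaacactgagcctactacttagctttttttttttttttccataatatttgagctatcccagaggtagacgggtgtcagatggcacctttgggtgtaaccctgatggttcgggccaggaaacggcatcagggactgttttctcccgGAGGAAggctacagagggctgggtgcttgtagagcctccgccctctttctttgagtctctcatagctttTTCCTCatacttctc
Ptprc: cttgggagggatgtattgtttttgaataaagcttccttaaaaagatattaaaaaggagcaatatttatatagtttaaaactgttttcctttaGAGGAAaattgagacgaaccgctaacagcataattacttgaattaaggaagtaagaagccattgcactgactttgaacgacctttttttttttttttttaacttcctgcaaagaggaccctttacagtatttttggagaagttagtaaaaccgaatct
Cd3e: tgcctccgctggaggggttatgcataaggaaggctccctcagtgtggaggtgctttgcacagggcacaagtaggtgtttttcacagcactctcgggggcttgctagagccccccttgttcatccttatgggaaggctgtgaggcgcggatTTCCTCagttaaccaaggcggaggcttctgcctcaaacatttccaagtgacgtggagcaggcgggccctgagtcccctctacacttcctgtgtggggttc
The motif began 84 bases before the Itgam start and lay 15 bases before it on the opposite strand. It lay 158 bases before the Ptprc start, and 100 bases before the Cd3e start on the opposite strand. It was absent from the window of the other Ptprc start and from that of Il2ra. Of all 32851 windows of this length, 7639 (23.3%) held it on either strand, and these matches describe letters and not binding.

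CD45 tags and Ptprc RNA were highest in cluster 2 of both brains with metastasis. Cluster 2 carried 204 and 202 CD45 tags per cell, cluster 8 carried 66.6 and 72.4, and cluster 10 carried 57.8 and 69.4. Background cells carried 3.83 and 6.35. The levels of clusters 8 and 10 overlapped, and both were below cluster 2 in each brain. Ptprc RNA was 392 and 313 CPM in cluster 2, 131 and 160 in cluster 8, and 55.6 and 36.1 in cluster 10. Clusters 8 and 10 thus had overlapping tags and CPM levels that did not overlap. Cluster 10 cells were deeper, with medians of 4745.5 and 2023.5 UMIs, against 1125 and 940.5 in cluster 8. Counted by cell at these unequal depths, the shares of cells with a Ptprc UMI overlapped. A Ptprc UMI was held by 29.63% and 16.07% of cluster 10 cells, against 25.54% and 23.97% of cluster 8 cells. With each cell thinned at random to 1000 UMIs, they did not overlap. In cluster 10, 2 and 4 cells then held a Ptprc UMI and 42 and 84 did not. In cluster 8, 19 and 23 cells held one and 87 and 90 did not. Cluster 12 of metastasis 1, the only brain with metastasis holding 20 cells of it, had 85 tags and 292 CPM.

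CD11b followed CD45 in cluster 2 and parted from it in cluster 8. Cluster 2 had 250 and 272 CD11b tags per cell, cluster 10 had 76.9 and 76.3, and cluster 8 had 24.6 and 21.0, against 3.57 and 4.80 in background cells. Itgam RNA, the gene of the integrin chain, was 157 and 189 CPM in cluster 2, 18.5 and 11 in cluster 10, and 20.7 and 24.2 in cluster 8. Cluster 10 therefore had over 3 times the tags of cluster 8 at a CPM that was lower in both brains. Its cells were deeper, and at these unequal depths its share of cells with an Itgam UMI was not lower. An Itgam UMI was held by 11.1% and 6.25% of cluster 10 cells, against 4.89% and 4.13% of cluster 8 cells. These rest on 6 and 7 UMIs in cluster 10 and 9 and 10 in cluster 8. With each cell thinned to 1000 UMIs, no cluster 10 cell of metastasis 1 held one. In metastasis 2, 1 cluster 10 cell held one and 87 did not. In cluster 8, 5 and 6 cells held one and 101 and 107 did not. The 4 clusters 2, 8, 10 and 12 held 18.3% and 23.2% of the cells of the brains with metastasis, 87.8% and 91.6% of the Itgam UMIs and 93.9% and 95.2% of the CD11b tags.

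CD86 was the other antigen whose tags stood well above background. Cluster 2 had 12.5 and 13.8 CD86 tags per cell, cluster 8 had 5.18 and 5.72, and cluster 10 had 3.17 and 4.59, against 0.979 and 1.12 in background cells. Cd86 RNA was 134 and 95.1 CPM in cluster 2, 59.7 and 70.2 in cluster 8, and 15.4 and 17.3 in cluster 10. Cluster 12 of metastasis 1 had the highest Cd86 RNA, 159 CPM, with 4.31 tags, between clusters 8 and 10. A larger part of the tags than of the RNA lay outside the 4 clusters, which held 93.8% and 94.5% of the Cd86 UMIs and 76.7% and 82.5% of the CD86 tags. Cells of clusters 0, 1, 3, 4 and 5 were many and carried 0.678 and 0.711 CD86 tags each, fewer than background cells. The 4 clusters held still smaller shares of the CD4 tags (41.7% and 50.3%) and CD25 tags (37.4% and 49.0%).

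CD4 and CD25 tags were at most about 3 times background in cluster 2 and cluster 8. CD4 tags averaged 2.34 and 2.49 in cluster 8 and 2.21 and 2.57 in cluster 2, against 1.03 and 0.997 in background cells, and clusters 8 and 2 overlapped. Cd4 RNA was 4.59 and 7.26 CPM in cluster 8 (2 and 3 UMIs) and 10.48 and 6.52 in cluster 2 (16 and 15 UMIs). CD25 tags averaged 1.61 and 1.48 in cluster 8 and 0.879 and 1.34 in cluster 2, against 0.50 and 0.709 in background cells. Il2ra RNA was 25.3 and 14.5 CPM in cluster 8 (11 and 6 UMIs) and 2.62 and 4.78 in cluster 2 (4 and 11 UMIs). CD25 was the antigen whose tags and RNA both had their highest level in cluster 8 in both brains.

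CD3e tags did not follow Cd3e RNA between clusters 8 and 2. Cd3e RNA was 62.0 and 109 CPM in cluster 8 (27 and 45 UMIs) and 29.5 and 18.3 in cluster 2 (45 and 42 UMIs). CD3e tags averaged 0.440 and 88.0 in cluster 8, and 0.440 and 0.357 without the single cell, against 0.492 and 0.504 in cluster 2. Background cells carried 0.194 and 0.157. Without that cell, tags were lower in cluster 8 than in cluster 2 in both brains, while RNA was higher in both. The cell held 1016 UMIs, 4 of T cell marker genes and 1 of Cd3e, and its other tags included 129 of CD45, 10 of CD4 and 2 of CD11b. The next highest cell of all brains held 47 CD3e tags, and the other 12420 cells held 2749 in all.

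**Figure D1:**
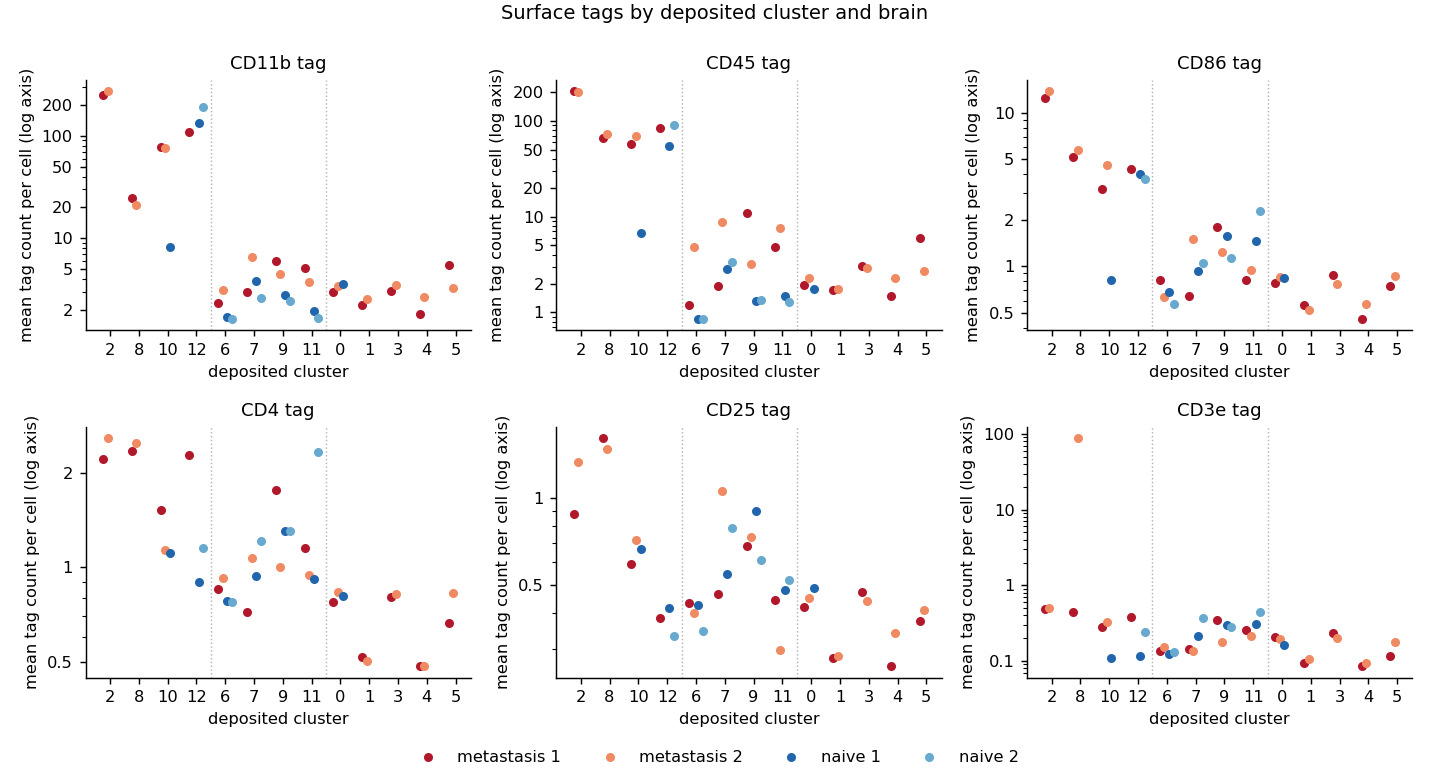
Mean tag count per cell (log axes) for each deposited cluster with at least 20 cells in a brain, 1 point per brain, with clusters 2, 8, 10 and 12 left of the first dotted line and the background clusters 6, 7, 9 and 11 between the lines. CD11b, CD45 and CD86 stand well above the background clusters in cluster 2, CD4 and CD25 by about 2 times, and the single high point of CD3e is cluster 8 of metastasis 2, where 1 cell holds 21201 tags.

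Across the 13 clusters of the brains with metastasis, the relation of log2 RNA to log2 tags ranged from r = 0.691 to 0.965 over the antigens. Pearson r of log2(CPM + 1) with log2(mean tags + 1) was 0.965 for Ptprc, 0.944 for Itgam, 0.917 for Cd86, 0.890 for Il2ra, 0.718 for Cd4 and 0.691 for Cd3e. Clusters share a library and differ in depth, so r is given as a description. In metastasis 1 (13 clusters) and metastasis 2 (12 clusters) taken alone, r was 0.956 and 0.960 for Ptprc, 0.929 and 0.929 for Itgam, 0.891 and 0.947 for Cd86, and 0.610 and 0.933 for Cd4. For Cd3e it was 0.815 and 0.824, and 0.800 over both brains without the single cell. Naive brains, with 7 and 5 clusters of 20 cells, gave 0.756 and 0.769 for Itgam, 0.740 and 0.751 for Ptprc and 0.860 and 0.793 for Cd86. They gave 0.399 and -0.221 for Cd3e, -0.013 for Il2ra in naive 1 and -0.166 for Cd4 in naive 2, and no value for the other 2, whose RNA was 0 in every cluster used. Spearman's rho of Ptprc in naive brains was 0.222 and 0.205.

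**Figure D2:**
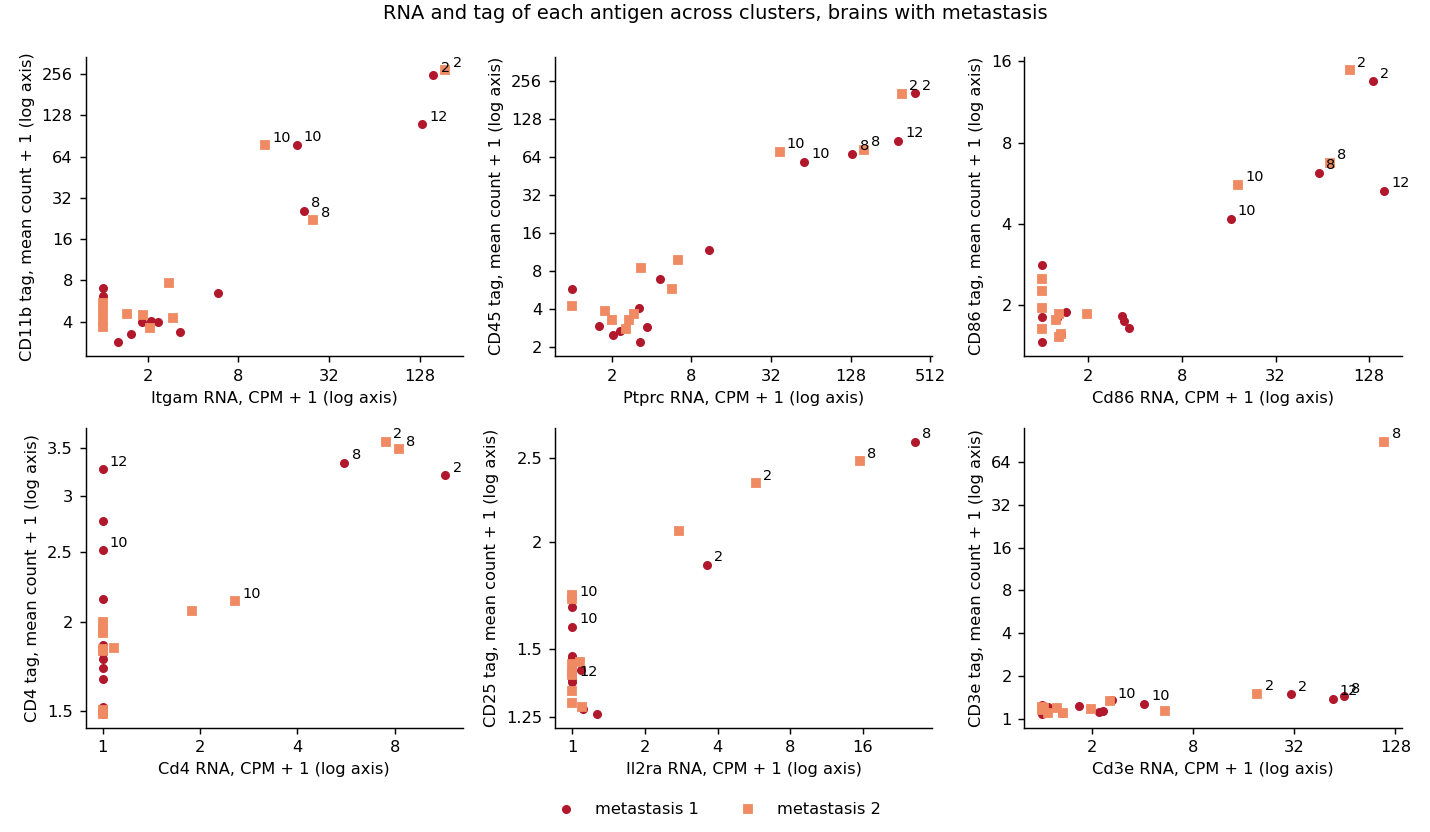
RNA (CPM + 1, log axis) against mean tag count + 1 (log axis) of each antigen, 1 point per cluster and brain with metastasis, with clusters 2, 8, 10 and 12 numbered. For CD11b, cluster 10 lies above cluster 8, whose Itgam CPM is higher in both brains. The CD3e panel is set by 1 point, cluster 8 of metastasis 2.

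For every tag, some other genes had a higher r than its own gene. Of 8915 genes at 20 CPM or more in some cluster, ranked by r with the tag, Ptprc stood 17th for CD45, Il2ra 23rd for CD25, Itgam 66th for CD11b and Cd86 124th for CD86. Cd4, below 20 CPM everywhere, would stand 692nd for CD4. Cd3e stood 72nd for CD3e, and 274th without the single cell. The genes most like each tag were Plac8, Wfdc17 and Lrrc25 for CD45 (r = 0.979, 0.978 and 0.977), Clec4e, Dpep2 and F13a1 for CD11b (0.987, 0.985 and 0.982), and Ly6i, Ifi209 and Tep1 for CD86 (0.978, 0.977 and 0.974). For CD25 they were Igkc, Tnfrsf18 and Kmo (0.943, 0.932 and 0.916), and for CD4 Fam105a, Rgs2 and Pycard (0.944, 0.944 and 0.943). For CD3e they were Ccl17, Iglc1 and Ccl22 with the single cell (0.978, 0.957 and 0.944), and I830077J02Rik, Ifi209 and Cd84 without it (0.925, 0.913 and 0.911).

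Among the 6 genes, the own gene gave the highest r for CD45 (0.965), CD11b (0.944) and CD25 (0.890). For CD86, Ptprc gave 0.944 and Cd86 0.917. For CD4, Ptprc gave 0.904, Cd3e 0.891 and Cd4 0.718. For CD3e, Il2ra gave 0.907 and Cd3e 0.691 with the single cell, and without it Ptprc gave 0.864, Cd86 0.847, Cd3e 0.800 and Il2ra 0.569. CD25 had r = 0.508 with Itgam and 0.580 with Cd86.

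**Figure D3:**
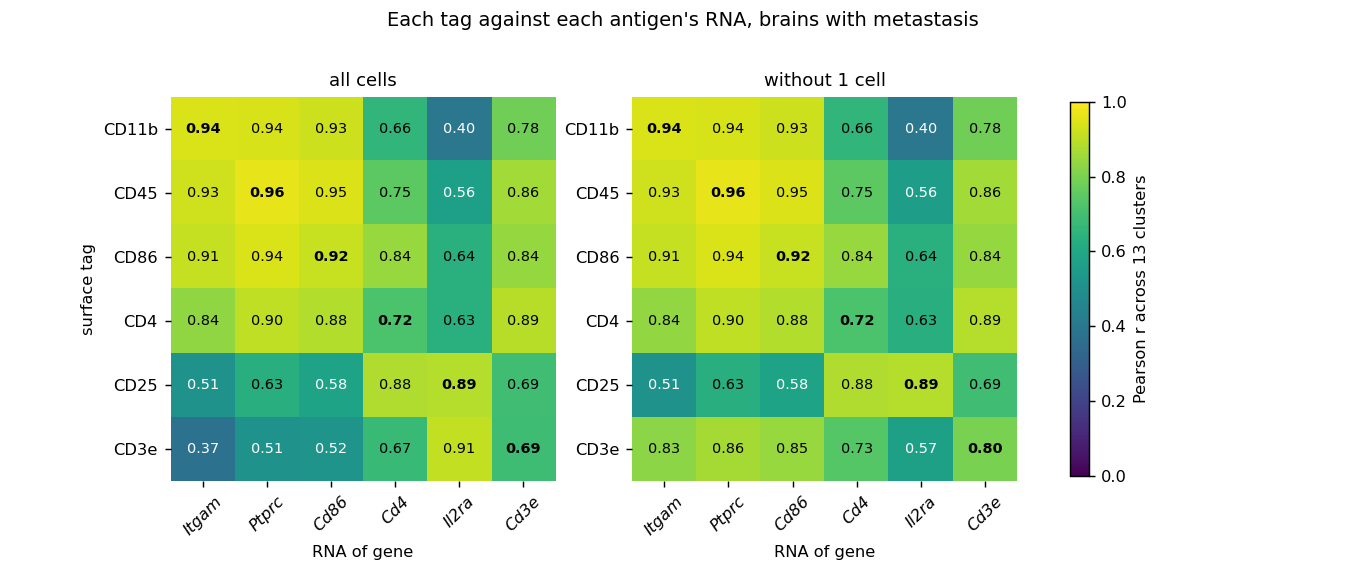
Pearson r across the 13 clusters of each tag (rows) with the RNA of each antigen (columns) in brains with metastasis, with all cells (left) and without the cell that holds 21201 CD3e tags (right), own pairs in bold. The CD45, CD11b and CD25 rows have their highest value at the own gene, and the CD3e row is the one that changes visibly when the cell is left out.

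In cluster 2, most cells above background for the CD11b or CD86 tag had no UMI of its gene, and most cells above background for CD45 had one. A tag count was called above background where it exceeded the 99th percentile of the background clusters of the same brain, 73 and 84 CD11b tags. By this measure 73.0% and 72.1% of cluster 2 cells were above background for CD11b, and 24.5% and 28.4% held an Itgam UMI, at median depths of 1547.5 and 1466 UMIs per cell. Of background cells, 0.5% and 0.5% held an Itgam UMI. For CD45 (83 and 123 tags) 62.1% and 48.8% were above background, and 46.5% and 43.0% held a Ptprc UMI, against 1.4% and 2.4% of background cells. For CD86 (13 and 14 tags) 27.0% and 31.0% were above background, and 22.1% and 17.1% held a Cd86 UMI, against 0.694% of background cells in metastasis 1 and 0 of 382 in metastasis 2 (upper Clopper-Pearson bound 0.961%). Of the cells above background, 30.9% and 33.9% held an Itgam UMI, 61.2% and 59.3% a Ptprc UMI and 40.2% and 28.8% a Cd86 UMI. Background cells were deeper, with medians of 3215.5 and 4119 UMIs.

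In cluster 2, cells with a UMI of any of the 6 genes were more often above background for its tag than cells without. Of cells there, 92.0% and 86.1% with an Itgam UMI were above background for CD11b, against 66.8% and 66.5% without one. For Ptprc and CD45 the shares were 81.7% and 67.4% with a UMI, against 45.1% and 34.8% without. For Cd86 and CD86 they were 49.1% and 52.2% with a UMI, against 20.8% and 26.7% without. For Cd4 and CD4 they were 43.8% and 42.9% of 16 and 14 cells with a UMI, against 3.56% and 5.72% without. For Il2ra and CD25 they were 33.3% and 54.5% of only 3 and 11 cells with a UMI, against 3.78% and 2.66% without. For Cd3e and CD3e they were 15.4% and 20.6% of 39 and 34 cells with a UMI, against 2.21% and 3.01% without. Outside cluster 2 the order was not the same throughout: for Ptprc in cluster 10 of metastasis 1 it was 12.5% of 16 cells with a UMI, against 26.3% without. Cells with an Itgam UMI were deeper, with medians of 2525 and 2399 UMIs, against 1368.5 and 1234 in cells without.

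With each cell thinned to 1000 UMIs the contrast was smaller for CD11b, and for CD45 the means, but not the medians, differed in direction between the brains. In the unthinned cells of cluster 2, mean CD11b tags were 424 and 428 with an Itgam UMI, against 194 and 210 without. After thinning they were 464 and 428, against 283 and 322. Mean CD45 tags were 287 and 278 with a Ptprc UMI, against 131 and 145 without, and after thinning 243 and 270, against 257 and 249. Median CD45 tags after thinning were 181 and 194 with a Ptprc UMI, against 168.5 and 158 without. Thinned to 500 UMIs, which keeps every cell, CD45 tags were 243 and 243 with a Ptprc UMI, against 196 and 194 without. Within cluster 2 the log tag count of CD11b, CD45 and CD86 had r = 0.564 to 0.663 with the log UMIs of the cell, and that of CD4, CD25 and CD3e had 0.243 to 0.384. The tags also went with each other, CD11b with CD45 at r = 0.904 and 0.871 in cluster 2 and at 0.375 and 0.355 in cluster 8. The part of cell size or capture in these relations was not tested.

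Itgam RNA in CPM was higher in each higher bin of CD11b tags in both brains. In clusters 2, 8, 10 and 12 together, cells with 0 to 4, 5 to 19, 20 to 79, 80 to under 320 and 320 or more CD11b tags had 10.2, 30.8, 42.3, 113 and 209 CPM of Itgam in metastasis 1. In metastasis 2 they had 7.05, 20.4, 89.4, 124 and 213 CPM. Ptprc RNA was 132, 187, 273 and 476 CPM in metastasis 1 and 130, 192, 233 and 326 CPM in metastasis 2 in the 4 upper bins of CD45. Cd86 was 78.6, 100.4 and 146 CPM in metastasis 1 and 42.4, 83.9 and 96.0 CPM in metastasis 2 in cells with 0 to 4, 5 to 19 and 20 to 79 CD86 tags. Cd4 was 3.12 and 24.1 CPM in metastasis 1 and 2.19 and 19.8 CPM in metastasis 2 in cells with 0 to 4 and 5 to 19 CD4 tags. These bins mix the 4 clusters, so the clusters were also taken singly.

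To compare cells within a cluster, those of each brain were ranked by a tag, and cells at or above the upper of 2 cut points that divide the ranks in 3 (high-tag cells) were set against cells at or below the lower one (low-tag cells). Ties make the parts unequal for the sparse tags. For CD25 the parts held all cells, 341 high and 377 low in cluster 2 of metastasis 1, and for CD86 in cluster 8 of metastasis 1 they held 77 and 91 of 184. In cluster 2, Itgam RNA rose in cells of high CD11b tag. Itgam was at 201 CPM in high-tag and 66.0 CPM in low-tag cells of metastasis 1, and at 219 and 158 CPM in metastasis 2. Both brains moved the same way, and high-tag values did not overlap low-tag ones. The log2 fold change was 0.85 (SE 0.22, adjusted p = 0.0277 by edgeR's quasi-likelihood test with brain as a block), 1 of 53 genes called among 5818 tested (0.911%). High-tag cells held more UMIs per cell, 3152 and 3517, against 1315 and 1119 in low-tag cells. In cluster 0, where 1.31% of genes were called, Itgam did not pass (log2 0.85, edgeR adjusted p = 0.663). The call was lost by DESeq2 (log2 0.95, adjusted p = 1.0), without the block (0.83, 0.439), with a split at the median (0.64, 0.115), with tags as a share of the cell's 6 tags (0.36, 0.838) and without cells that held both T cell and myeloid markers (0.73, 0.191). The fold was 0.40 without metastasis 1 and 1.56 without metastasis 2, where no test was possible.

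Ptprc did not pass the test in either cluster. In cluster 2 it was at 448 CPM in high-tag and 241 CPM in low-tag cells for CD45 in metastasis 1, and at 358 and 274 CPM in metastasis 2 (log2 0.54, SE 0.15, edgeR adjusted p = 0.325, 0 of 5959 genes called, 635 at an unadjusted p under 0.05, 2 called by DESeq2). It passed with narrower tails of 4 parts (0.62, adjusted p = 0.0113), with a split at the median (0.53, 2.62e-05, 4.13% of genes called) and with the parts set within bins of UMIs per cell (0.83, 4.08e-13). In cluster 8 the difference ran the other way, at 115 against 193 CPM in metastasis 1 and 140 against 203 CPM in metastasis 2 (log2 -0.72, SE 0.31, edgeR adjusted p = 0.264, 1.05% of 2469 genes called). With tags as a share of the cell's 6 tags its sign turned, to 0.53.

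Cd86 RNA was higher in cells of high CD86 tag in both brains with metastasis in clusters 2 and 8 and did not pass. It was at 148 against 129 CPM in metastasis 1 and 105 against 65.9 CPM in metastasis 2 in cluster 2 (log2 0.33, SE 0.20, edgeR adjusted p = 0.572, 2.35% of 6003 genes called). In cluster 8 it was at 74.8 against 19.3 CPM and at 109 against 35.8 CPM (log2 1.65, SE 0.48, edgeR adjusted p = 0.185, 0.164% of 2435 genes called). The fold in cluster 8 rested on 22 and 23 UMIs in high-tag and 2 and 4 in low-tag cells. In cluster 12 the brains differed in direction, with 59.5 CPM in high-tag and 283 CPM in low-tag cells of metastasis 1, 148 and 230 CPM in naive 1, and 165 and 105 CPM in naive 2, each on 10 or fewer UMIs.

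The T cell antigens were too sparse for this cut. Cd4 had 16 and 13 UMIs in cells of high CD4 tag in cluster 2, against 0 and 1 in cells of low tag, and did not pass the filter on low counts. Split at the median of the tag, Cd4 passed in cluster 2 at 16.7 against 0.896 CPM (log2 3.71, SE 0.75, edgeR adjusted p = 0.0205, 0.681% of genes called). Il2ra had 9 and 6 UMIs in cells of high CD25 tag in cluster 8, against 2 and 0 in cells of low tag. The cuts for CD3e tags coincided, since most cells had none. Split at the median instead, cells of cluster 2 with more CD3e tags had 52.5 CPM of Cd3e, against 8.60 CPM in the rest (log2 2.56, SE 0.37, edgeR adjusted p = 3.23e-09, 0.538% of 7066 genes called). In cluster 8 the same split, with the single cell among those of more tags, gave 162 against 67.5 CPM (log2 1.24, SE 0.35, edgeR adjusted p = 0.139, 1.26% of 3093 genes called). The median splits were not repeated without cells that held both T cell and myeloid markers, so the part of such cells was not tested.

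**Figure D4:**
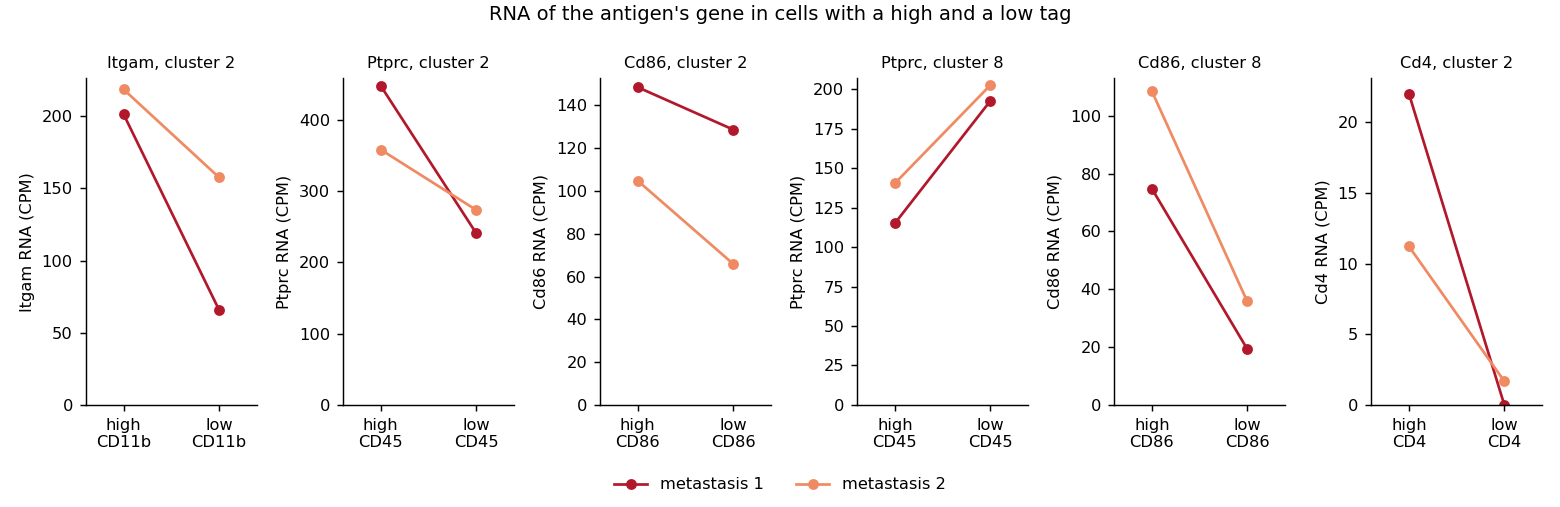
RNA of the antigen's gene (CPM, axes from 0) in high-tag (left) and low-tag (right) cells of a cluster, 1 line per brain with metastasis. Itgam, Cd86 and Cd4 are higher in high-tag cells in both brains, and Ptprc is higher in high-tag cells in cluster 2 and lower in cluster 8.

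Cd3e RNA went with a low CD11b tag in cluster 8. It was at 13.2 CPM in high-tag and 215 CPM in low-tag cells of metastasis 1 (3 and 21 UMIs), and at 42.4 and 227 CPM in metastasis 2 (9 and 27 UMIs). It fell by 3.03 on the log2 scale (SE 0.44, edgeR adjusted p = 0.00423, 1 of 47 genes called among 2547, 1.85%). DESeq2 gave log2 -3.15 with an adjusted p of 0.964. Of 7 tested genes of the CD3 complex and co-receptor list, 5 fell with it, among them Trac, a T cell receptor chain (log2 -2.90), and Cd8b1, a chain of the CD8 co-receptor (-3.61). The list's median was -2.70 and that of all genes 0.01. Itgam itself had 7 and 8 UMIs in high-tag cells and 1 and 1 in low-tag cells.

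Genes other than the antigen's own were called between cells of high and low tag. With CD11b in cluster 2, the neutrophil granule genes Ngp (log2 6.00) and Camp (5.85) and the calprotectin chains S100a9 (3.42) and S100a8 (2.55) rose, and the chemokine gene Xcl1 fell by 2.69 (edgeR adjusted p = 7.88e-08). With CD86 in cluster 2, Cxcl9, a chemokine induced by interferon gamma, rose (log2 1.82), and Ngp (-2.01), Camp (-1.79), S100a9 (-1.68) and Enpp2 (-1.80) fell. With CD86 in cluster 8, Ccr7, the homing receptor of migrating dendritic cells and naive T cells, rose (3.83), and the granzyme genes Gzma (-4.99) and Gzmb (-2.82) and Actb (-1.09) fell, which were all 4 genes called. Each of these folds passed in edgeR, which called 53, 141 and 4 genes in the 3 comparisons, against 0, 6 and 3 by DESeq2. Neutrophil-marker cells, grouped by marker RNA as described below, were few, 7 in metastasis 1 and 5 in metastasis 2. A few such cells in one tag part could move Ngp, Camp, S100a9 and S100a8 without a change across cluster 2 cells. Their part in these folds was not tested.

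With CD4 tags, T cell genes moved where Cd4 itself was too sparse to test. In cluster 2, where 0.74% of 6213 genes were called, 4 of 7 tested genes of the CD3 list rose: Cd3d (log2 1.90), Cd3g (1.67), Trbc2 (1.63) and Trac (1.62). Of 8 tested genes of the interleukin 2 receptor and regulatory T cell list, 3 rose, the costimulatory receptor genes Tnfrsf4 (5.67) and Tnfrsf18 (1.48) and the inhibitory receptor gene Ctla4 (2.72). The medians of the lists were 1.63 and 1.45, and that of all genes 0.01. In cluster 8 Tnfrsf4 rose with CD4 (2.62, 7.98% of 2142 genes called) and with CD25 (3.03, 0.0657% of 3043 called). The other gene called with CD25 there was Igkc, the immunoglobulin kappa constant region (-3.09). With CD25 in cluster 2, where 0.235% of 6805 genes were called, Trbc2 rose (0.97) and Ngp fell (-1.35). The part of the few neutrophil-marker cells in the fall of Ngp was not tested here either. With CD4, DESeq2 called 2 genes in cluster 2 and 13 in cluster 8, and with CD25 it called 0 and 1. None of the lists of beta2 integrins, CD45 partners or the B7 family had a called member with any tag in cluster 2.

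Cells grouped by marker RNA, with none of the 6 genes among the markers, showed the tags by cell type. Cells with 3 or more T cell marker UMIs and at most 2 myeloid ones carried 58.3 and 86.0 CD45 tags in the brains with metastasis (12 and 22 cells) with 4.50 and 2.77 CD11b tags, near the 3.57 and 4.80 of background cells. Cells with 3 or more NK cell marker UMIs, no T cell marker UMI and at most 2 myeloid ones (10 and 17 cells) carried 49.5 and 52.0 CD45 tags. Their CD11b tags were 8.50 and 10.0, in a group chosen for little myeloid RNA. Monocyte-marker cells had 5 or more monocyte marker UMIs, none of T cell markers and few of microglia or neutrophil markers. Monocyte-marker cells (470 and 656 cells) carried 109 and 131 CD45 tags with 142 and 184 CD11b tags, against 32.1 and 30.6 CD45 tags with 16.8 and 13.5 CD11b tags in naive brains (9 and 8 cells). Neutrophil-marker cells had the most CD11b, 625 and 543 tags in 7 and 5 cells with metastasis and 194 and 535 tags in 3 and 8 naive cells.

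The ratio of CD45 to CD11b tags in microglia-marker cells differed between the conditions. These cells held 5 or more UMIs of genes such as Tmem119 and P2ry12, more than of monocyte markers, and no neutrophil marker UMI. They carried 72.2 and 88.2 CD45 tags with metastasis (20 and 16 cells) and 48.9 and 50.7 in naive brains (34 and 17 cells). CD11b tags were 73.6 and 63.9 with metastasis and 133 and 109 in naive brains. CD45 tags per CD11b tag were 0.981 and 1.38 with metastasis and 0.367 and 0.466 in naive brains, and the conditions did not overlap. The same cells held 25 and 23 UMIs of NK cell markers with metastasis and 3 and 2 in naive brains, and the part of NK cells in the ratio was not tested. For monocyte-marker cells the ratio ran the other way, at 0.765 and 0.716 with metastasis and 1.91 and 2.27 in naive brains (9 and 8 cells), while the ratio of medians overlapped. With 2 brains a condition the exact permutation test cannot go below p = 0.333, and these cells were chosen by a count of marker UMIs set after seeing the data.

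CD4 tags were higher in T-marker cells that showed no Cd8 RNA, a comparison with no test. Among all cells with 3 or more T cell marker UMIs in the brains with metastasis, those without a Cd8a or Cd8b1 UMI carried 9.68 and 11.4 CD4 tags (60 and 89 cells), against 4.56 and 3.66 in those with one (25 and 29 cells). The medians were 6 and 8, against 2 and 1. T-marker cells with at most 2 myeloid UMIs carried 5.75 and 6.09 CD4 tags, and NK-marker cells 0.600 and 0.765. Cells that held T cell and myeloid markers together (63 and 75 cells) carried 315 and 381 CD11b tags, 376 and 385 CD45 tags and 9.89 and 11.8 CD4 tags. The 3 and 4 cells with a UMI of Foxp3, the regulatory T cell factor, carried 8.33 and 4.50 CD25 tags, against 2.42 and 2.81 in T-marker cells without one, and the medians were 2 and 2.5, against 1 and 1.

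CD3e tags were few in T-marker cells. Of 213 T-marker cells other than the single cell, 86 (40.4%) had no CD3e tag, the highest count was 16 and the mean was 1.44. Of 39 of them with at most 2 myeloid UMIs, 25 had no CD3e tag and the highest count was 7. The same kind of cell had 704 and 761 CPM of Cd3e RNA with metastasis and 1156 CPM in naive 1.

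**Figure D5:**
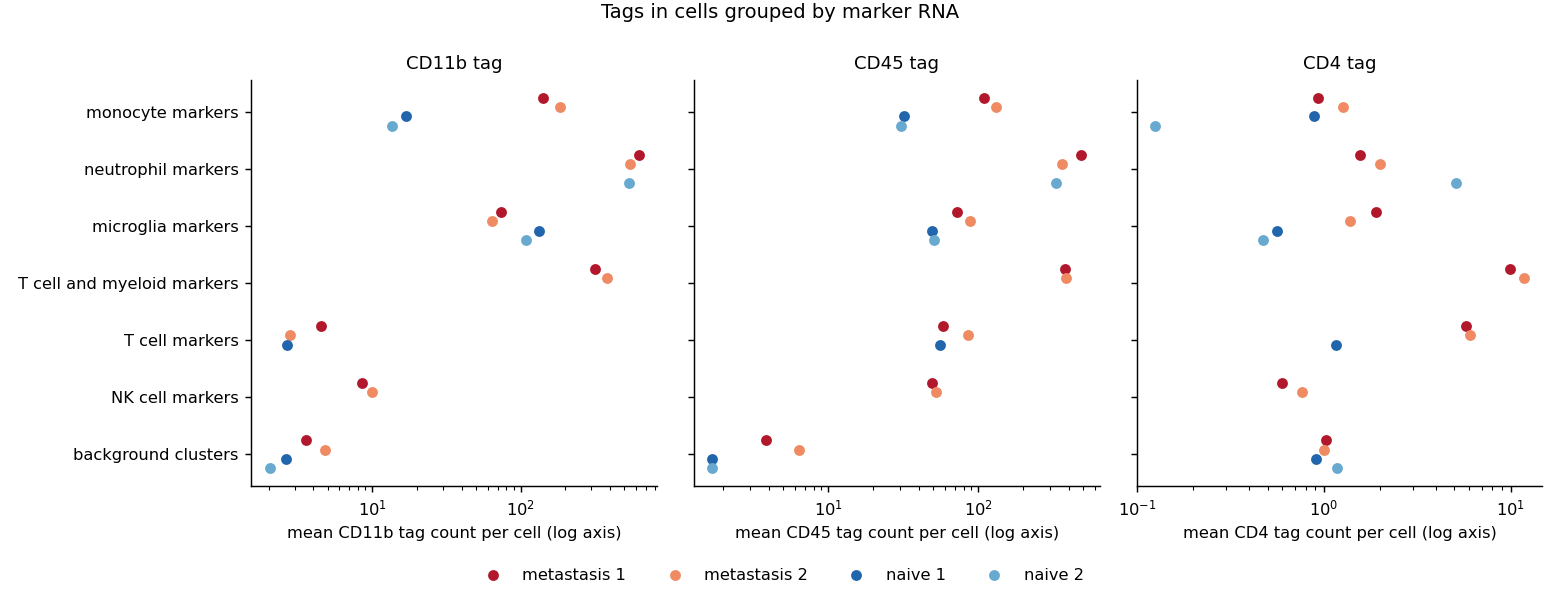
Mean CD11b, CD45 and CD4 tags per cell (log axes) in cells grouped by marker RNA and in the background clusters, 1 point per brain with at least 5 such cells. T-marker cells sit with the background for CD11b and far above it for CD45, and microglia-marker cells of brains with metastasis lie left of naive ones for CD11b and right of them for CD45.

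Between conditions, no gene of the 6 passed in any cluster. Clusters with 20 cells in all 4 brains were 6, 7, 9 and 11, where all 6 genes fell below the filter on low counts, while 7.58%, 31.1%, 4.29% and 16.1% of the genes tested were called. With a minimum of 10 cells, chosen after seeing the data, clusters 1, 8, 10 and 12 were added, none of the 6 could be tested in clusters 1 and 10 (0.0619% and 2.44% of genes called), 3 of the genes could be tested in cluster 8 and 2 in cluster 12. In cluster 8 Ptprc was at 179 CPM with metastasis and 376 CPM in naive brains (TMM-scaled, log2 -1.07, SE 0.47, edgeR adjusted p = 0.336, 0.682% called), Cd3e at 106 and 248 CPM (log2 -1.14, SE 0.86, adjusted p = 0.628) and Cd86 at 80.1 and 54.3 CPM (log2 0.46, SE 1.09, adjusted p = 0.869). The naive Cd3e level rested on 8 UMIs in naive 1 and 0 in naive 2, and that of Cd86 on 0 and 2. Without naive 2 the Cd3e fold was -2.04 (adjusted p = 0.0782), and without naive 1 no Cd3e UMI was left in the naive cells. In cluster 12 Ptprc was at 469 and 470 CPM (log2 -0.03, SE 0.42, edgeR adjusted p = 0.968, 5.86% called) and Itgam at 215 and 286 CPM (log2 -0.38, SE 0.49, adjusted p = 0.634).

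Of the partner genes, Lgals1, whose product galectin-1 binds CD45 among other glycoproteins, rose with metastasis in clusters 6, 7, 8, 9 and 11 (log2 0.84, 1.74, 1.27, 1.05 and 1.05). Icam2, an adhesion ligand of the beta2 integrins, fell in cluster 6 (-1.21). In cluster 12 Fcgr3, an antibody receptor, and Vsir, an inhibitory B7 family member, fell (-1.52 and -1.44). In the same cluster the neutrophil genes S100a9 (0 CPM with metastasis and 8879 CPM in naive brains) and S100a8 (17.8 and 7046 CPM) fell, and S100a9 fell in cluster 8 too (7.33 and 1074 CPM). The part of neutrophils in the results of these 2 clusters was not tested. No member of the CD3 or interleukin 2 receptor lists was called in any cluster.

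CD45 and CD11b tags were higher with metastasis in both brains in 3 of the 4 background clusters. In endothelial-like cluster 6, CD45 tags were 1.19 and 4.82 with metastasis and 0.852 and 0.857 in naive brains. In choroid plexus-like cluster 9 they were 10.8 and 3.21 with metastasis and 1.32 and 1.36 in naive brains, and in mural-like cluster 11 they were 4.78 and 7.54 with metastasis and 1.5 and 1.30 in naive brains. These groups did not overlap, nor did those of CD11b in the same clusters, and cluster 7 overlapped for both. The 6 tags in the 4 clusters gave 24 comparisons, of which 12 did not overlap, each with p = 0.333 in the exact two-sided permutation test, the smallest that 2 brains against 2 allow (adjusted p = 0.667). Each of these clusters held 0 to 6 Ptprc UMIs per brain. Brains with metastasis also held more cells rich in these tags, and the part of free antibody or shared droplets was not tested.

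Of the clusters with 10 or more cells in every brain, which leaves out cluster 2, cluster 10 had the largest log2 differences in CD11b, CD45 and CD86 tags. Its naive cells differed in makeup: the choroid plexus genes Enpp2 (145 CPM with metastasis and 4666 CPM in naive brains) and Kl (18.7 and 672 CPM) fell with metastasis by 4.93 and 4.82 on the log2 scale (edgeR adjusted p = 7.12e-10 and 1.94e-04). With metastasis it had 76.9 and 76.3 CD11b tags, against 8.22 and 6.00 in naive brains (27 and 13 cells), and 57.8 and 69.4 CD45 tags, against 6.78 and 3.38. CD86 tags were 3.17 and 4.59, against 0.815 and 0.308. The log2 differences were 3.27, 3.46 and 1.65, and the brains did not overlap (adjusted p = 0.571 in the exact permutation test). In cluster 12, CD11b tags were 109 and 118 with metastasis (26 and 15 cells) and 134 and 192 in naive brains (60 and 33 cells), and CD45 tags overlapped at 85 and 90.8 with metastasis and 55.1 and 91.3 in naive brains. In clusters 10 and 12 alike, a shift in makeup and a shift in tags per cell cannot be told apart.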

How the data were processed

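Single cells of 4 hashed brains were read with a 10x 3' v2 kit, per the labels. The deposited tables hold raw counts, UMIs per gene and tags per antibody, and the authors' per-cell table gives the hashing call, the cluster and the percent of mitochondrial UMIs. The submitters' processing notes name Cell Ranger 3.0.2, Seurat 3.0.1 and mm10. No per-sample column was left unused. Doublets were not called here, and whether the authors removed them is not given in the sources used here.

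Counts were summed per brain and cluster, or per brain and tag part (high or low of 3), and tested with edgeR 4.0.16 (TMM, filterByExpr, quasi-likelihood, Benjamini-Hochberg, threshold 0.05). The tag comparisons had brain as a block, since both parts come from the same brain. DESeq2 1.42.0 was an alternative. A summed profile needed 20 cells. Tags were compared by an exact two-sided permutation test over brains. Shares carry 95% Clopper-Pearson intervals in the tables, which cover counting error only. Thinning to 1000 UMIs left out 987 cells with metastasis and 347 naive cells. On simulated counts, 86.67% of genes changed by 2 on the log2 scale were recovered for the CD11b comparison in cluster 2 (5814 genes) and 75.81% between conditions in cluster 6 (4456 genes). Only well-counted genes were changed, at a fixed dispersion and with no difference between brains. These shares do not cover smaller folds or genes as sparse as Cd4 and Il2ra.

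The members and lists were chosen with earlier results of these data known. Genes named are the 6 antigens' own, called members of 5 partner lists, the 3 genes most like a tag, and the 5 called genes with the largest absolute fold and at least 50 CPM on average in a comparison. The 10-cell minimum, the marker-cell gates, the background percentile, tag parts within 5 bins of UMIs and leaving out the cell rich in CD3e tags were chosen after seeing the data.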

Additional observations from a re-analysis of the deposited data

Results flagged for a closer look

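Ptprc RNA differed in opposite directions between cells of high and low CD45 tag in clusters 2 and 8 of the same brains. In cluster 2, log2(CPM + 1) in high-tag minus low-tag cells was 0.89 in metastasis 1 and 0.39 in metastasis 2. In cluster 8 it was -0.74 and -0.53. The log2 fold changes of the clusters lie 1.27 apart. It drew attention because every brain moved one way in one cluster and the other way in the other, and the difference between the clusters was not tested. With tags as a share of the cell's 6 tags, the cluster 8 fold turned to 0.53.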

How the results depend on the processing

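With brain as a block, 1185 genes were called over all high against low tag comparisons and 1 antigen's own gene; without the block 330 genes and 0 own genes were called. No paired analysis was possible between metastasis and naive brains because each brain belongs to 1 condition and the numbers pair nothing. Genes called over these numbered 70 by DESeq2 (0 own genes), 1912 by tails of 4 parts (3 own), 412 when thinned and 2758 within UMI bins (3 own); own genes numbered 3 with no filter and 3 by the median split. Leaving out a brain left no test in clusters 2 and 8, and gave 19 to 103 genes where 3 or 4 brains entered, against 18. Between conditions, 2771 genes were called in clusters 6, 7, 9 and 11, 1233 by DESeq2, 1223 with at most 10% mitochondrial UMIs and 1301 to 2459 leaving out a brain (1301 without metastasis 2), and no antigen gene under any of these. Ptprc by CD45 in cluster 8 turned to 0.53 with shares of tags. For r, pseudocount 10 gave 0.946 for Itgam, 0.972 for Ptprc, 0.866 for Cd86 and 0.706 for Cd3e. Mean UMIs per cell gave 0.910 for Itgam, 0.952 for Ptprc, 0.824 for Il2ra and 0.910 for Cd3e. Median tags gave 0.933 for Itgam, 0.810 for Cd86, 0.374 for Cd4 and 0.376 for Il2ra, and no value for Cd3e. Centred log ratios of the tags gave 0.898 for Itgam and 0.969 for Ptprc and reversed Cd86 (-0.760), Cd4 (-0.721), Il2ra (-0.418) and Cd3e (-0.827); a ratio to the cell's other tags falls where CD11b and CD45 are high, by construction. Spearman's rho was 0.644 for Itgam, 0.758 for Ptprc, 0.594 for Cd86, 0.370 for Il2ra and 0.611 for Cd3e. Leaving out clusters 0, 1, 3, 4 and 5 replaced the planned removal of carcinoma-led clusters, since none was found. That search set each cluster against all other cells, which for these clusters were largely each other. It could therefore not show whether they are tumour cells. Without them, r was 0.943 for Itgam, 0.953 for Ptprc, 0.922 for Il2ra and 0.657 for Cd3e. Leaving out a brain gave 0.929 to 0.929 for Itgam, 0.956 to 0.960 for Ptprc and 0.815 to 0.824 for Cd3e. Without the cell rich in CD3e tags, r of Cd3e was 0.800 and its rank 274, against 72. Tag pairs that did not overlap between conditions numbered 12 of 24, 11 relative to background cells, 8 by shares of tags, 3 by median tags and 26 of 48 with 10 cells; leaving out a brain gave 14 to 21, which cannot be set against 12, since 1 brain overlaps 2 less often than 2 do. Thinned to 500 in place of 1000 UMIs, shares of cluster 2 cells with a UMI were 8.93% against 15.6% for Itgam, 16.2% against 30.2% for Ptprc, 5.39% against 10.8% for Cd86, 0.168% against 1.19% for Cd4 and 0.955% against 1.90% for Cd3e. Other causes were not tested. With 2 brains a condition and 42 UMIs each of Cd4 and Il2ra, depth limits what can be shown for these genes.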

Other observations

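In cluster 12, CD11b and CD45 tags went together from cell to cell at r = 0.613 in metastasis 1 (26 cells) and at 0.910 and 0.893 in the naive brains (60 and 33 cells). CD11b tags also went with UMIs per cell, at 0.505 in metastasis 1 and 0.767 and 0.838 in the naive brains, and CD45 tags at 0.659 in metastasis 1 and 0.736 and 0.858 in the naive brains. Of the naive cells, 90% and 90.9% were above the 99th percentile of background cells for CD11b, at thresholds of 21 and 16 tags. For CD45 they were 31.7% and 66.7%, at unequal thresholds of 39 and 12 tags.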
